A study of Sus scrofa with 10 samples.

Results

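The S100 proteins and annexins are calcium-dependent proteins that often work as pairs, and 10 of their genes, S100A1, S100A4, S100A6, S100A10, S100A11, ANXA1, ANXA2, ANXA4, ANXA5 and ANXA6, were followed here in the pig right ventricle. They are 10 of the 12378 genes of the expression table that carry a symbol, beside 3260 without one, and each matched 1 Ensembl row. The genes were chosen by their symbols with earlier CTEPH minus Sham differences of these data in view, so their own differences between groups are given as a description, with no test. Right ventricular biopsies came from 5 pigs with chronic thromboembolic pulmonary hypertension (CTEPH; libraries s1, s3, s4, s5 and s9), a disease in which lasting clots narrow the arteries of the lung and the right ventricle pumps against a raised pressure, and from 5 Sham pigs (libraries s2, s6, s7, s8 and s10). Each pig gave 1 bulk RNA library. The labels name no strain, age, sex, batch or time after the procedure, and do not say how CTEPH was produced or what the Sham pigs underwent. In bulk tissue, more cells of a type and more RNA per cell cannot be told apart.

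S100 proteins are small EF-hand proteins that form dimers and expose a binding face, mostly when calcium rises. Annexins bind acidic phospholipids of membranes in the presence of calcium, and each has its own N-terminal tail. The classic complexes join the tails of annexins to an S100 dimer: S100A10 with annexin A2, which forms without calcium, and S100A11 with annexin A1, which needs it. In the heart S100A1 is the cardiomyocyte member, known for its action on calcium release and reuptake, while S100A4, S100A6, S100A10 and S100A11 are better known from fibroblasts, endothelium and immune cells.

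In CTEPH ventricles S100A6, S100A10, S100A11, ANXA2 and ANXA5 were higher, and in each of these 5 genes every CTEPH library lay above every Sham library. S100A1, S100A4, ANXA1, ANXA4 and ANXA6 overlapped between groups. On the table-wide scale, 5 of the 10 genes passed an adjusted p of 0.05 as higher in CTEPH (limma, Benjamini-Hochberg over all genes) and 0 as lower, where 2.83% of all genes passed as higher and 1.79% as lower. For groups without overlap and higher in CTEPH, the share of all genes was 3.7%, with 2.87% lower and 6.57% in either direction. Because the genes were picked with this contrast in view, nothing is read from these counts against the shares. The median difference was 0.75 on the log2 scale over the 10 genes and -0.03 over all genes.

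**Figure D1:**
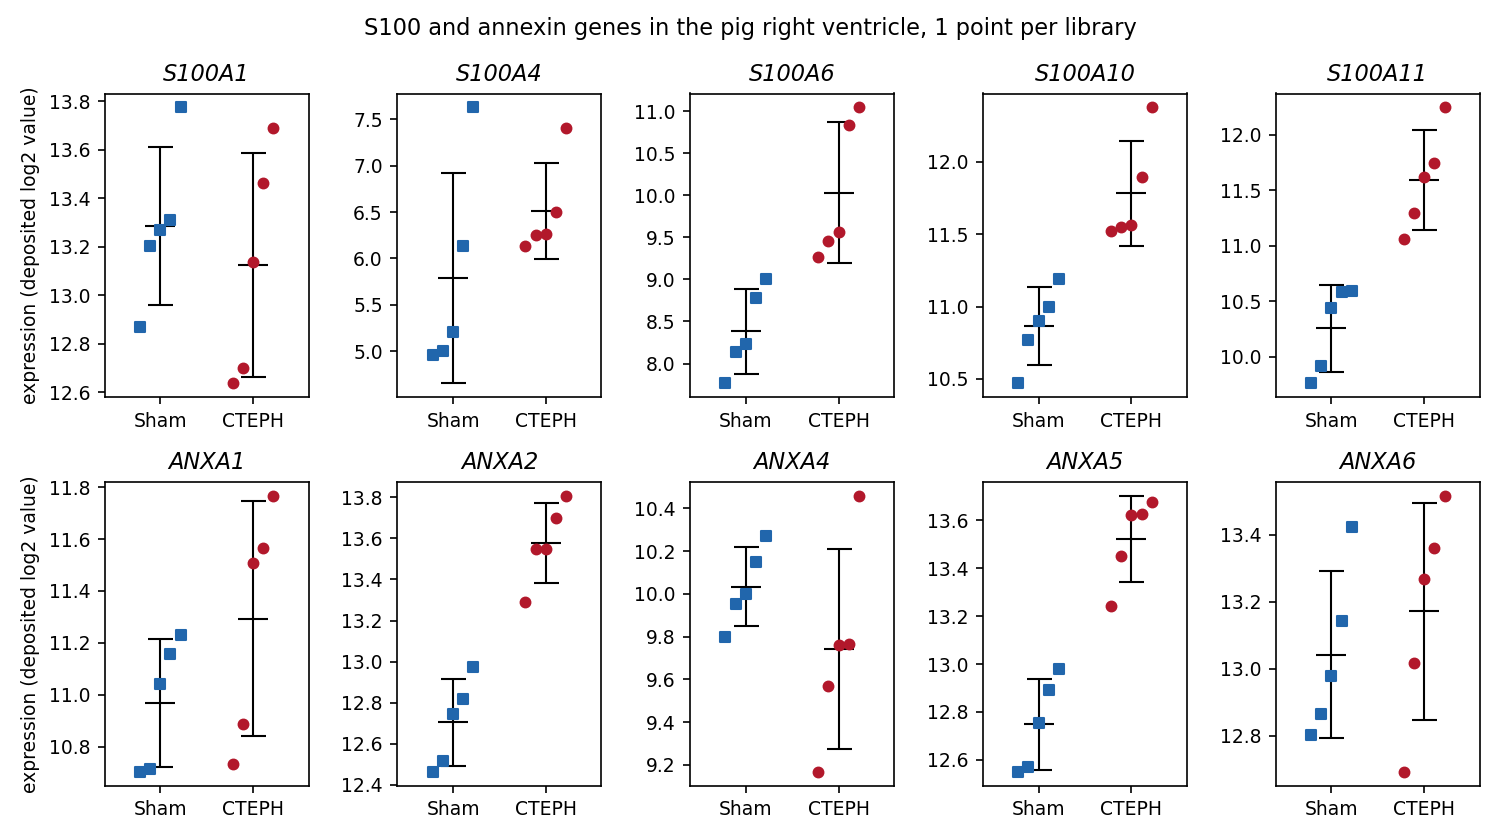
Deposited log2 expression of the 10 genes (vertical axes, a separate range for each gene) in Sham (blue squares) and CTEPH (red circles), with 1 point per library, sorted within a group, and the mean with its SD as black bars (n = 5 each). S100A6, S100A10, S100A11, ANXA2 and ANXA5 show 2 separate sets of points, and the other 5 genes overlap.

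S100A10 and ANXA2, the calcium-independent pair, were higher by nearly the same amount. S100A10 (also called p11, Ensembl ENSSSCG00000006612, chromosome 4, 97261752 to 97272517 of Sscrofa11.1) encodes an S100 protein that has lost calcium binding, carries annexin A2 and ion channels to the cell surface, and binds plasminogen there with annexin A2. Its log2 values were 11.55, 11.57, 12.38, 11.52 and 11.89 in CTEPH libraries s1, s3, s4, s5 and s9, and 10.90, 10.997, 10.47, 11.19 and 10.77 in Sham libraries s2, s6, s7, s8 and s10. Library s4 stood highest, and the lowest CTEPH value exceeded the highest Sham value by 0.33. The means were 11.78 ± 0.37 and 10.87 ± 0.27 (SD over n = 5 libraries each), a difference of 0.91 ± 0.19 (SE of the limma fit) or 1.89-fold, with a 95% interval of 0.51 to 1.32 on the log2 scale.

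ANXA2 (ENSSSCG00000004578, chromosome 1, 111588721 to 111635064) encodes the annexin that joins membranes to actin and, with S100A10, binds plasminogen and its activator. Its log2 values were 13.55, 13.70, 13.81, 13.29 and 13.55 in s1, s3, s4, s5 and s9, and 12.46, 12.82, 12.51, 12.97 and 12.75 in s2, s6, s7, s8 and s10. As for S100A10, s4 was the highest CTEPH library, s5 the lowest, and s8 the highest Sham library. The difference was 0.87 ± 0.14 (SE), or 1.83-fold, from 12.70 ± 0.21 in Sham to 13.58 ± 0.20 in CTEPH (SD over n = 5 libraries each).

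Set side by side, the log2 value of S100A10 minus that of ANXA2 was -1.80 ± 0.28 in CTEPH against -1.84 ± 0.19 in Sham (SD over n = 5 libraries each). The groups differed in it by 0.04 ± 0.15 (SE from the group SDs), and the CTEPH range of -2.13 to -1.43 enclosed the Sham range of -2.05 to -1.56. These values compare 1 balance between groups, not the abundance of 1 gene against the other, since gene length was not taken into account.

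S100A11 and ANXA1, the calcium-dependent pair, had differences of unlike size. S100A11 (calgizzarin; ENSSSCG00000006610, chromosome 4, 97233833 to 97239081) had log2 values of 11.30, 12.25, 11.62, 11.06 and 11.74 in s1, s3, s4, s5 and s9, and of 9.76, 10.58, 10.59, 10.44 and 9.91 in s2, s6, s7, s8 and s10. Library s3 was highest, and the gap between the lowest CTEPH and the highest Sham value, 0.47, was the widest of the 10 genes. The means were 11.59 ± 0.45 and 10.26 ± 0.39 (SD over n = 5 libraries each), a difference of 1.34 ± 0.23 (SE), or 2.53-fold.

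ANXA1 (ENSSSCG00000005267, chromosome 1, 226414200 to 226431963) encodes the glucocorticoid-induced annexin that restrains leukocyte entry through formyl peptide receptors. Its log2 values were 10.74, 10.89, 11.51, 11.57 and 11.77 in s1, s3, s4, s5 and s9, and 10.71, 11.23, 10.70, 11.04 and 11.16 in s2, s6, s7, s8 and s10. Libraries s4, s5 and s9 exceeded every Sham library, while s1 and s3 lay inside the Sham range. The difference was 0.32 ± 0.21 (SE), with a 95% interval of -0.12 to 0.77, from 10.97 ± 0.25 in Sham to 11.29 ± 0.45 in CTEPH (SD over n = 5 libraries each), and it was not called.

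The log2 value of S100A11 minus that of ANXA1 was 0.30 ± 0.70 in CTEPH against -0.71 ± 0.42 in Sham (SD over n = 5 libraries each), so the balance was shifted toward S100A11 by 1.01 ± 0.37 (SE from the group SDs). Single libraries differed: it was 1.36 in s3, 0.56 in s1, 0.11 in s4, -0.02 in s9 and -0.51 in s5, where s5 lay inside the Sham range of -1.25 to -0.11. The library with the most S100A11, s3, was thus among the lower CTEPH libraries for ANXA1.

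**Figure D2:**
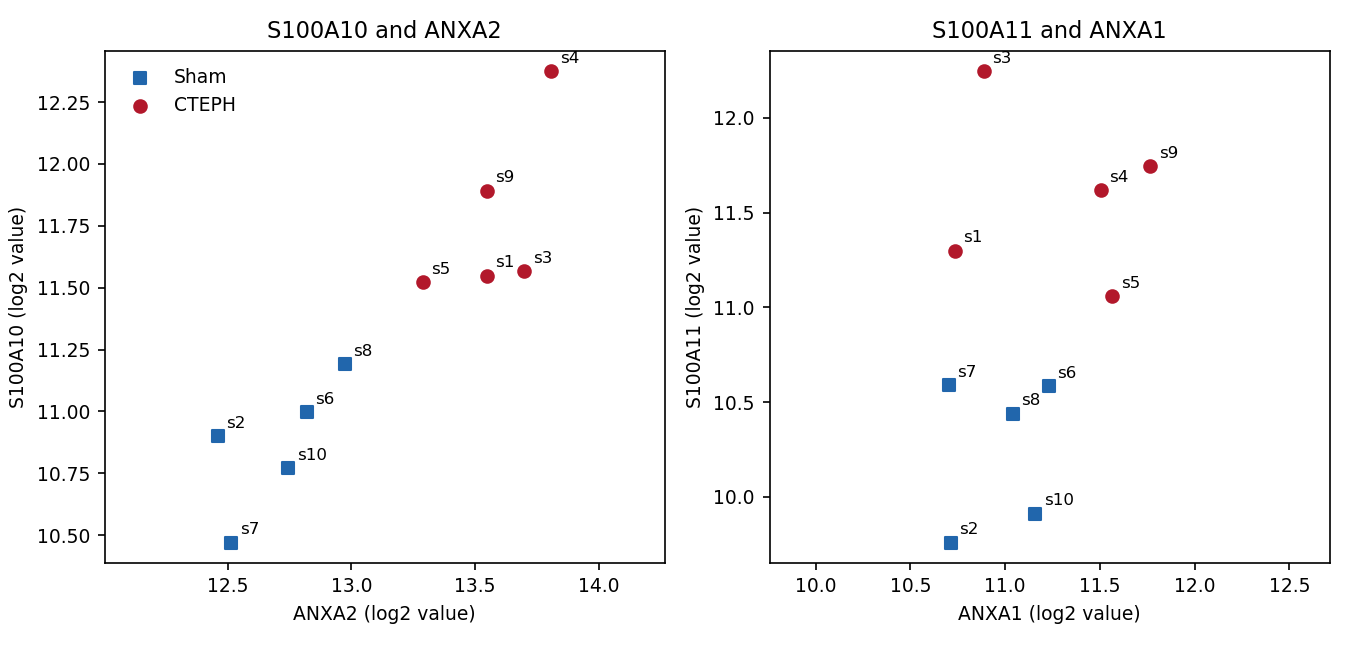
Log2 values of S100A10 against ANXA2 (left) and of S100A11 against ANXA1 (right), 1 point per library, Sham as blue squares and CTEPH as red circles, with library names beside the points. On the left both genes separate the groups, and on the right the groups separate on the vertical axis (S100A11) and overlap on the horizontal axis (ANXA1).

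Whether partners also vary together among pigs of 1 group was tested after each group's mean had been subtracted, a measure the choice of genes did not use. For S100A10 and ANXA2 Pearson r was 0.68 over 10 libraries (two-sided exact permutation p = 0.0464 over all 14400 reorderings within groups; 0.0928 after Benjamini-Hochberg adjustment over the 2 pairs). Spearman rho was 0.70 (exact permutation p = 0.0429, adjusted 0.0858). Without s4 and s7, the libraries farthest from the median of S100A10 after that subtraction, r was 0.45 over 8 libraries (exact permutation p = 0.306). The relation did not pass after adjustment with all libraries, and its size rests on those 2, whose removal also narrows the range. Within CTEPH r was 0.66 and within Sham 0.72, each over 5 libraries and given as a description.

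For S100A11 and ANXA1 Pearson r was -0.08 (two-sided exact permutation p = 0.854, adjusted 0.854) and Spearman rho -0.26 (exact permutation p = 0.529, adjusted 0.529). Without s5 and s2, the libraries farthest from the median of S100A11 after its group means were subtracted, r was -0.09 (exact permutation p = 0.905). That step kept CTEPH library s3, which had the highest S100A11 value. Without s3 alone r was 0.26 (exact permutation adjusted p = 0.489). Both genes of a point come from 1 library, and so share its depth and tissue makeup.

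Among all 45 pairs of the 10 genes, within-group r ran from -0.64 (ANXA5 with ANXA6) to 0.80 (S100A1 with S100A6), as a description. S100A6 with S100A11 followed at 0.75 and S100A10 with ANXA2 at 0.68. S100A1 did not separate the groups but followed S100A6 among pigs of a group, and ANXA1 was closest to ANXA4 (0.60). ANXA5, which separated the groups, had negative r with S100A1 (-0.59), S100A11 (-0.41) and S100A6 (-0.27).

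**Figure D3:**
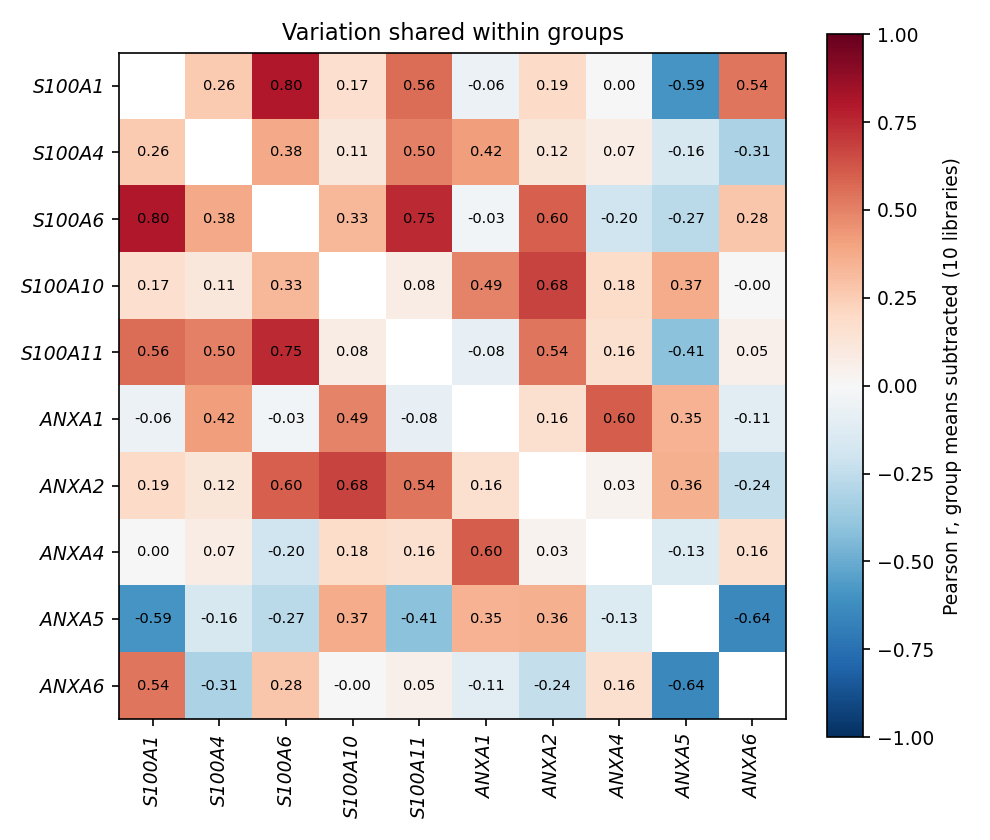
Pearson r between the 10 genes over 10 libraries after subtracting each gene's mean in its group, with red for positive and blue for negative values. The highest off-diagonal values are S100A1 with S100A6 (0.80), S100A6 with S100A11 (0.75) and S100A10 with ANXA2 (0.68), and S100A11 with ANXA1 is near 0 (-0.08).

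Ranked by the same measure among the other 15637 genes of the table, ANXA2 stood at position 252 for S100A10, and S100A10 at position 423 for ANXA2. ANXA1 stood at position 9097 for S100A11. The genes with a symbol closest to S100A10 were LRRN3 (0.93), CCN5 (0.92), HES1 (0.90), EXTL1 (0.87) and NDE1 (0.87), and those closest to ANXA2 were EXD1 (0.94), HPS1 (0.94), SALL3 (0.93), MDK (0.91) and CPXM1 (0.91). Closest to S100A11 were B3GAT3 (0.93), LFNG (0.92), CD9 (0.91), TEX26 (0.90) and RASGEF1C (0.89). Closest to ANXA1 were SPAG5 (0.95), CKS2 (0.95), OGN (0.94), KIF2C (0.92) and FAM111A (0.92). Of these 20 genes the 3 cell division genes SPAG5 (log2 difference 3.78 ± 0.39, SE), KIF2C (3.22 ± 0.37) and CKS2 (2.35 ± 0.27) were called higher in CTEPH (limma adjusted p = 1.4e-04, 2.5e-04 and 2.5e-04, Benjamini-Hochberg), and the other 17 were not called. These are the highest of very many values from 10 libraries and are listed as a description.

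S100A6, or calcyclin, is a growth-associated S100 protein that binds the ubiquitin ligase adaptor encoded by CACYBP. The gene (ENSSSCG00000021084, chromosome 4, 96098264 to 96099686) had the largest difference of the 10. Its log2 values were 9.45, 10.84, 11.05, 9.27 and 9.56 in s1, s3, s4, s5 and s9, and 7.76, 9.01, 8.78, 8.23 and 8.14 in s2, s6, s7, s8 and s10. Libraries s3 and s4 stood more than 1 log2 unit above the other CTEPH libraries. The means were 10.03 ± 0.84 and 8.38 ± 0.50 (SD over n = 5 libraries each), a difference of 1.65 ± 0.36 (SE), or 3.14-fold, with a 95% interval of 0.87 to 2.43. With 1 library left out the difference ran from 1.40 to 1.84. As a description, S100A6 was the only 1 of the 5 higher genes to drop out of the table-wide count in such refits, in 5 of 10: those without CTEPH library s3 or s4 or Sham library s2, s8 or s10.

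S100A4, known as fibroblast-specific protein and as a regulator of non-muscle myosin, was low and scattered. The gene (ENSSSCG00000006578, chromosome 4, 96088102 to 96091160) had log2 values of 6.13, 6.25, 6.50, 6.26 and 7.40 in s1, s3, s4, s5 and s9, and of 4.96, 7.63, 6.14, 5.21 and 5.00 in s2, s6, s7, s8 and s10. Sham library s6 was the highest of all 10 libraries, and 3 Sham libraries lay below every CTEPH library. In the low part of the table, the position of a value among the distinct values of its library, from 0, equals its read count if every whole count occurs there. By that reading S100A4 had 33 to 76 reads in CTEPH and 13 to 144 reads in Sham. The difference was 0.72 ± 0.48 (SE), with a 95% interval of -0.32 to 1.77, and was not called. It was 1.18 without Sham library s6, 0.50 without CTEPH library s9 and 0.43 with an offset of 32 added to the linear values.

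S100A1, the cardiomyocyte S100 protein that acts on the ryanodine receptor, the calcium pump and titin, did not separate the groups. Its log2 values were 12.70, 13.46, 13.69, 12.64 and 13.14 in s1, s3, s4, s5 and s9, and 13.27, 13.31, 13.77, 12.87 and 13.20 in s2, s6, s7, s8 and s10. CTEPH libraries s1 and s5 lay below the Sham range and the other 3 inside it. The difference was -0.16 ± 0.22 (SE), with a 95% interval of -0.63 to 0.32, which leaves room for changes of that size in either direction. S100A1 (ENSSSCG00000031053, chromosome 4, 96007026 to 96012305) overlaps S100A13 (96007280 to 96025120) in the RefSeq annotation, and as no source used here gives the strand setting of the counting, reads of both genes may not be told apart.

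ANXA5 encodes the annexin that forms a lattice on exposed phosphatidylserine and is used as a probe of dying cells. The gene (ENSSSCG00000009097, chromosome 8, 102387833 to 102420868) had log2 values of 13.67, 13.24, 13.62, 13.63 and 13.45 in s1, s3, s4, s5 and s9, and of 12.55, 12.75, 12.57, 12.98 and 12.89 in s2, s6, s7, s8 and s10. Here s1 was the highest CTEPH library and s3 the lowest, another order than for S100A10, S100A11, S100A6 and ANXA2. The difference was 0.77 ± 0.13 (SE), or 1.71-fold, from 12.75 ± 0.19 to 13.52 ± 0.18 (SD over n = 5 libraries each). The within-group spread was among the smallest of the 10 genes.

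ANXA4, an annexin of epithelial and secretory membranes, was lower in 4 of 5 CTEPH libraries. The gene (ENSSSCG00000008336, chromosome 3, 72623311 to 72654591) had log2 values of 9.17, 9.77, 9.57, 9.76 and 10.46 in s1, s3, s4, s5 and s9, and of 9.998, 9.80, 9.95, 10.27 and 10.15 in s2, s6, s7, s8 and s10. Libraries s1, s3, s4 and s5 lay below every Sham library and s9 above every one. The difference was -0.29 ± 0.21 (SE), with a 95% interval of -0.74 to 0.16, and it was -0.15 without s1 and -0.47 without s9.

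ANXA6, the annexin with a doubled core that is abundant in muscle membranes, was at 13.17 ± 0.32 in CTEPH and 13.04 ± 0.25 in Sham (SD over n = 5 libraries each). The gene (ENSSSCG00000017089, chromosome 16, 71857229 to 71913723) had log2 values of 12.69, 13.52, 13.36, 13.27 and 13.02 in s1, s3, s4, s5 and s9, and of 13.42, 12.80, 13.14, 12.86 and 12.98 in s2, s6, s7, s8 and s10. The groups were interleaved, with CTEPH libraries at both ends. The difference was 0.13 ± 0.17 (SE), with a 95% interval of -0.24 to 0.50.

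**Figure D4:**
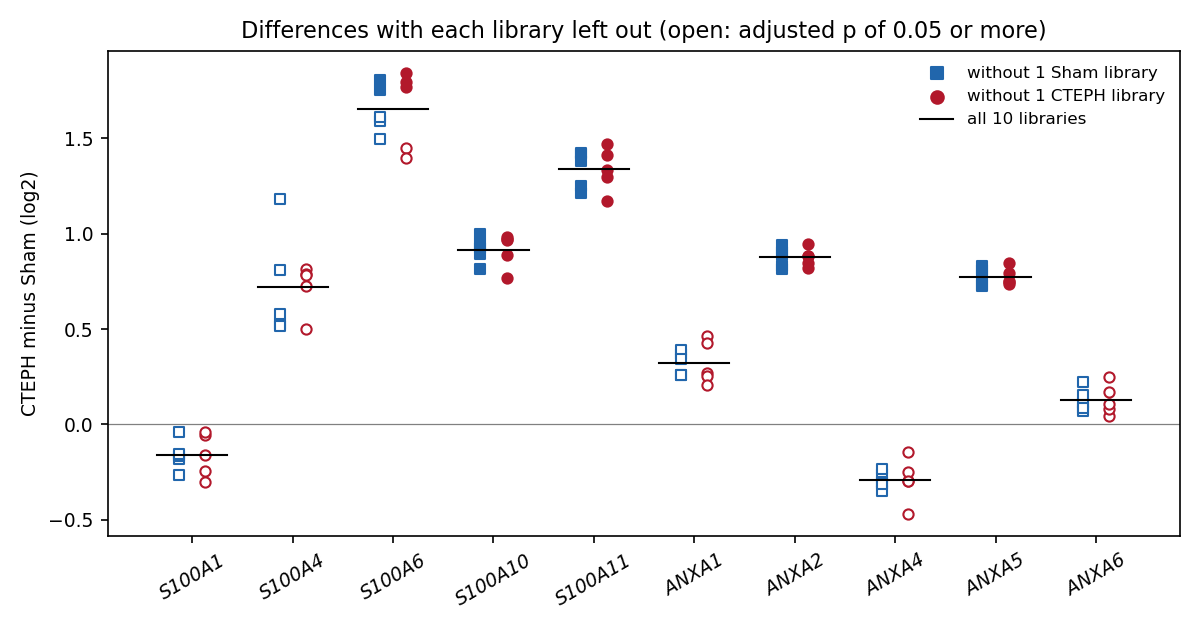
CTEPH minus Sham difference on the log2 scale (vertical axis) for each gene with all 10 libraries (black line) and with each library left out (blue squares, a Sham library; red circles, a CTEPH library; open where the limma adjusted p is 0.05 or more). S100A10, S100A11, ANXA2 and ANXA5 keep filled symbols in all 10 refits, S100A6 has 5 open symbols, and no gene changes sign.

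The same libraries often stood at the ends of their group. Of the 10 genes, s4 had the highest CTEPH value in 4 and s9 in 3, while s5 had the lowest in 5 and s1 in 4. In Sham, s8 had the highest value in 4 and s2 the lowest in 5. These are counts over genes of the same libraries and carry no test.

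Among the rest of both families 1 gene was called, and it was lower in CTEPH. Of 21 further S100 and annexin genes looked for, 6 were matched in the table, and of these 0 rose and 1 fell (limma, Benjamini-Hochberg), against 4.62% of all genes called in either direction. S100A14, an S100 protein known from epithelia (chromosome 4, 96027746 to 96029878), fell by 1.24 ± 0.27 on the log2 scale (SE; limma adjusted p = 0.0219, Benjamini-Hochberg). Its log2 values were 6.40, 6.29, 5.97, 5.68 and 6.95 in s1, s3, s4, s5 and s9, and 7.69, 8.02, 7.20, 7.38 and 7.22 in s2, s6, s7, s8 and s10, so that the groups did not overlap. The call was lost in 4 of 10 refits, without CTEPH library s4 or s5 or Sham library s2 or s6. By the reading used for S100A4, S100A14 had 27 to 53 reads in CTEPH and 53 to 189 reads in Sham. The most were in s6, the library of greatest relative depth (1.59).

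ANXA11, an annexin that tethers RNA granules to lysosomes, was 0.41 ± 0.11 lower (SE) and did not pass (limma adjusted p = 0.0552, Benjamini-Hochberg), although its groups did not overlap. It lay at 12.88 ± 0.10 in CTEPH and 13.29 ± 0.11 in Sham (SD over n = 5 libraries each). S100A2 was at 2.64 ± 1.24 (SE; adjusted p = 0.254), with positions among the distinct low values that stand for 12, 139, 115, 21 and 0 reads in s1, s3, s4, s5 and s9, against 2, 0, 4, 2 and 7 reads in s2, s6, s7, s8 and s10. It was nearly absent from s9 as from Sham, and without s9 the difference was 3.83 and was called (limma adjusted p = 0.0274, Benjamini-Hochberg). ANXA13 was at 1.30 ± 0.52, ANXA9 at -0.67 ± 0.33 and ANXA7 at 0.03 ± 0.13 (SE), none of which passed (limma adjusted p = 0.180, 0.273 and 0.915, Benjamini-Hochberg). Reads of ANXA13, taken in the same way, were 20 to 48 in CTEPH and 4 to 32 in Sham.

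**Figure D5:**
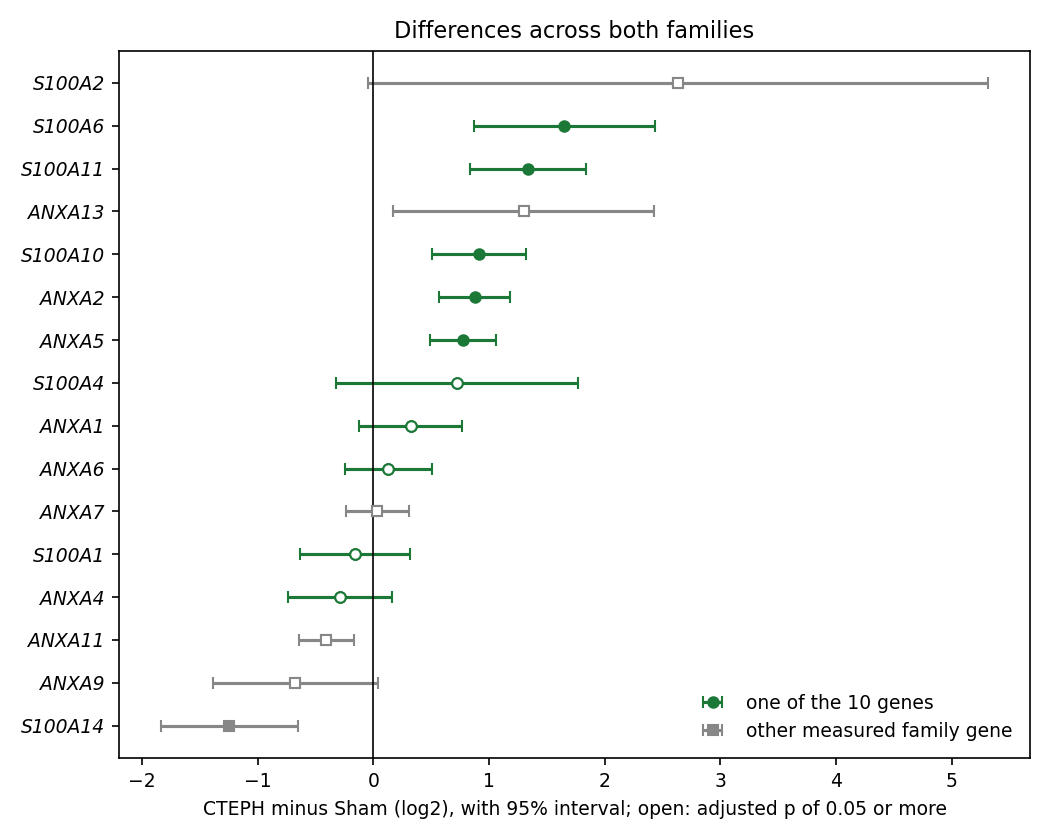
CTEPH minus Sham difference on the log2 scale with its 95% interval (horizontal axis) for the 10 genes (green circles) and the 6 other measured S100 and annexin genes (grey squares), filled where the limma adjusted p is under 0.05. The 5 filled green symbols lie to the right of 0, and the only filled grey symbol, S100A14, lies to the left.

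On chromosome 4 the S100 genes form a cluster, and S100A11 and S100A10 are 22671 bases apart. From the start of S100A1 to the end of S100A10 the RefSeq table lists 50 genes, and the 7 with a symbol match in the expression table were all S100 genes. They did not move together: S100A6, S100A11 and S100A10 were called higher, S100A14 lower, and S100A1, S100A2 and S100A4 were not called.

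Genes that act with the S100 proteins and annexins were read from lists of partners, receptors and targets. Of the 11 measured genes reported here as partners or ligands of the S100A10 and annexin A2 complex, 0 passed and 3 had an unadjusted p under 0.05 (limma), where 20.3% of all genes had one, and the median difference was 0.27. The annexin A2 ligand PLAT, tissue plasminogen activator, was at 0.27 ± 0.25, the urokinase gene PLAU at 0.71 ± 0.25, and the scaffold AHNAK, which binds the complex, at -0.02 ± 0.35, and none of these passed (limma adjusted p = 0.583, 0.129 and 0.989, Benjamini-Hochberg).

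Of 9 listed receptor genes for extracellular S100 proteins or annexin A1, 4 had a match: TLR4, ALCAM, EGFR and ERBB4. No formyl peptide receptor gene was among these 4, so those receptors of annexin A1 were not covered. Of the 4, 0 passed and 1 had an unadjusted p under 0.05 (limma), against 20.3% of all genes. ALCAM was at 0.71 ± 0.28, TLR4 at 0.19 ± 0.23, EGFR at -0.24 ± 0.45 and ERBB4 at -0.29 ± 0.61 (SE). Of 11 measured intracellular targets of S100A1, S100A4 and S100A6, 0 passed and 2 had an unadjusted p under 0.05 (limma), near the share of 20.3% of all genes. The 2 were the actin-capping gene CAPZA1 (0.45 ± 0.14) and the tropomyosin gene TPM1 (0.50 ± 0.16, SE), in both of which the groups did not overlap, as in 578 genes higher in CTEPH over the whole table. The ryanodine receptor gene RYR2 was at -0.04 ± 0.24, the calcium pump gene ATP2A2 at -0.06 ± 0.19, the S100A4 target MYH9 at 0.06 ± 0.22 and the S100A6 target CACYBP at 0.03 ± 0.14 (SE). Of 14 measured membrane repair genes 0 passed and 1 had an unadjusted p under 0.05 (limma), against 20.3% of all genes: EHD1 was at -0.41 ± 0.18 and dysferlin (DYSF) at 0.30 ± 0.21 (SE). ALCAM, CAPZA1, TPM1 and EHD1 are named after their values were seen.

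EF-hand calcium-binding proteins outside the S100 family gave 1 call among the 19 genes reported here, against 4.62% of all genes. CALM2, a calmodulin gene, rose by 0.51 ± 0.13 (SE, limma adjusted p = 0.0405, Benjamini-Hochberg), and 0 genes were called lower. CALM3, which encodes the same protein, was at 0.39 ± 0.19 (SE) and did not pass (limma adjusted p = 0.256, Benjamini-Hochberg). Of the 19 genes, 9 had an unadjusted p under 0.05 (limma), against 20.3% of all genes. They were CALM2, NCS1, CHP1, RCN1, RCN3, CALU, SPARC, EFHD1 and EFHD2, of which SPARC is also in the fibrillar collagen and matrix list. Among these 9 only EFHD1 was lower in CTEPH, at -1.28 ± 0.36 (SE), the largest difference of the list in size. EFHD1 did not pass (limma adjusted p = 0.0594, Benjamini-Hochberg). The median difference of the list was 0.38, against -0.03 over all genes. CALM2 lost its call in 9 of 10 refits, and kept it only without CTEPH library s3.

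Among the cell type markers some were higher and some lower in CTEPH, and their relation to the 5 higher genes was not tested. Of 13 measured macrophage and monocyte markers 4 were called higher and 0 lower (limma, Benjamini-Hochberg), led by the scavenger receptor MSR1 (1.62 ± 0.23, SE). Of all genes 2.83% were called higher and 1.79% lower. An unadjusted p under 0.05 was found in 7 of the 13 (limma), against 20.3% of all genes. Of these 7, CD68 was lower in CTEPH, at -0.50 ± 0.20 (SE). CSF1R (0.03 ± 0.20) and CD14 (0.13 ± 0.27, SE) differed little, and the median difference of the list was 0.42. The log2 of the summed linear values of the 13 markers was 13.55 to 14.69 in CTEPH and 13.13 to 14.001 in Sham. Of 7 measured myofibroblast markers CCN2 and CTHRC1 rose and 0 fell, and 5 had an unadjusted p under 0.05 (limma). Their summed level was 13.83 to 16.11 in CTEPH and 13.44 to 13.88 in Sham. Among them ACTA2 (0.01 ± 0.27) and FAP (0.09 ± 0.22, SE) differed little, and the groups overlapped in CTHRC1. Of 10 fibroblast markers 0 passed, with summed levels of 16.82 to 17.77 and 16.84 to 17.55, and a median difference of -0.04. PDGFRA was at -0.46 ± 0.20 and DPT at 0.43 ± 0.20 (SE), the 2 with an unadjusted p under 0.05. MSR1 and SPP1 kept their calls in all 10 refits without 1 library, while LYZ lost its call in 5, TREM2 in 7, CCN2 in 2 and CTHRC1 in 8. TREM2, the remaining called macrophage marker, had overlapping groups and a mean log2 value of 2.65 in Sham. No marker of these 3 lists was at the lowest value of any library.

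Levels of these lists also differed between libraries of 1 group. Such a level averages, over a list, each gene's deviation from its own mean of all 10 libraries. The fibrillar collagen and matrix list, of which 0 of 13 genes passed and 4 had an unadjusted p under 0.05 (limma; 20.3% of all genes), had a level of -0.40 to 0.95 in CTEPH and -0.55 to -0.03 in Sham, with s1 (-0.40) and s9 (-0.23) inside the Sham range. The myofibroblast level was -1.02 to -0.37 in Sham, and of the CTEPH libraries s1 (-0.41) lay inside that range and s9 (-0.01), s5 (1.02), s3 (1.18) and s4, the highest, above it. The macrophage level was 0.15 to 0.70 in CTEPH and -0.73 to -0.06 in Sham, without overlap. Their part in the S100 and annexin differences was not tested.

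The remaining cell type lists are given by their calls and summed levels. Of all genes 2.83% were called higher and 1.79% lower, and 20.3% had an unadjusted p under 0.05 (limma). Of 10 endothelial markers TEK and FLT1 fell, 0 rose and 4 had an unadjusted p under 0.05 (limma). Their summed levels were 14.90 to 15.29 in CTEPH and 15.08 to 15.75 in Sham. Differences of the 10 endothelial markers ran from -0.94 to -0.18, with a median of -0.35. CNN1 was the only called gene of 10 smooth muscle and pericyte markers (14.86 to 15.91 and 15.14 to 15.49), higher in CTEPH. That list was mixed, with a median difference of -0.11 and 5 genes at an unadjusted p under 0.05. Beside CNN1 these were MCAM (0.89 ± 0.27), KCNJ8 (0.43 ± 0.18), RGS5 (-0.61 ± 0.26) and PDGFRB (-0.54 ± 0.19, SE). Of 10 cardiomyocyte markers MYL2 and CSRP3 rose (21.34 to 21.68 and 21.10 to 21.55). In 3 the unadjusted p was under 0.05: MYL2, CSRP3 and MYBPC3, which was lower (-0.54 ± 0.23, SE), and the median difference was -0.01. Of 8 T and NK lymphocyte markers 0 passed and 0 had an unadjusted p under 0.05 (9.93 to 10.26 and 9.70 to 10.65). Of 6 Schwann cell and neural markers SOX10 fell and 4 had an unadjusted p under 0.05 (9.24 to 9.72 and 9.78 to 11.04). NGFR alone had a positive difference (0.79 ± 0.67, SE). Of 5 adipocyte markers CFD and PLIN4 fell (13.95 to 14.53 and 14.28 to 14.90), and only these had an unadjusted p under 0.05. FABP4 was at 0.44 ± 0.21 (SE). Only 3 neutrophil markers were measured, without S100A8, S100A9 and S100A12, which are not analysed here. Of these 3, 0 passed and 1, CSF3R (1.18 ± 0.53, SE), had an unadjusted p under 0.05. ELANE was at -0.57 ± 0.40 and MMP9 at -0.35 ± 1.23 (SE). Summed levels were 5.92 to 7.37 and 5.88 to 7.51, and MMP9 was at the lowest value in s2, s8 and s9. KRT8 rose by 3.53 ± 0.85 (SE) as 1 of 2 measured mesothelial and epithelial markers (9.49 to 12.06 and 7.84 to 9.66), and all 22 measured proliferation genes rose. Among these AURKB, named after its values were seen, had overlapping groups and lost its call in 9 of 10 refits without 1 library. Each of these calls is by limma with Benjamini-Hochberg adjustment over all genes. In the 10 refits without 1 library, the calls of TEK, FLT1, CSRP3 and SOX10 were each lost in 5, those of CNN1, CFD, PLIN4 and KRT8 each in 6, and that of MYL2 in 1, without CTEPH library s4.

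Relative sequencing depth, read from the low values, ranged from 0.723 in s9 to 1.59 in s6 and overlapped between groups, and total counts are unknown. The summed cardiomyocyte markers stood above those of every other cell type list in all 10 libraries. Apart from S100A4, the 10 genes had mean log2 values above 8.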

How the data were processed

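Bulk RNA from right ventricular biopsies of 10 pigs was sequenced, 1 library per pig. The labels give polyA RNA as the molecule but name a kit for total RNA. Per the submitters' processing notes, the tools were bcl2fastq 2.18.12, cutadapt 1.15, FastQC 0.11.5, featureCounts, edgeR 3.36.0 and limma 3.50.0, with the build Sscrofa11.1. No source used here gives the aligner, annotation or strand setting. The deposited values are log2 expression, with nearly 1 distribution in all libraries (medians 9.305 to 9.308), as quantile normalization leaves behind, so a change shared by most genes cannot appear. Total counts are unknown. Relative depth came from 2461 genes at positions 5 to 120 among the distinct values of every library.

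A table pairing Ensembl identifiers with symbols matched 12378 of 15638 rows, and coordinates from the RefSeq table of Sscrofa11.1, matched by symbol. Groups were compared with limma 3.58.1 (R 4.3.3; intensity trend, no covariate, no filter, two-sided), with Benjamini-Hochberg adjustment over all genes and a threshold of 0.05. The p-values treat these pigs as independent. Nothing says whether libraries share a litter or day, so that could not be checked. Partner correlations were computed in Python 3.11.15 with group means subtracted, on exact permutations within groups. In simulated data (15638 genes, 200 changed, as many up as down), normal noise was drawn for each gene independently at its own within-group SD. There the fit called 46.5% of genes with a log2 change of 1, 86% at 2 and 92.5% at 3, and 4.64% to 6.01% of its calls were false. Genes that vary together were not simulated, so these shares need not hold for the real libraries.

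The 10 genes and the 20 gene lists were chosen with earlier results of these data known. Named genes are the 10, the other measured S100 and annexin genes, up to 3 called genes with the smallest p of each other list or its best known member, and the 5 genes most like each partner. Other partner, receptor, target, EF-hand and cell type marker genes, among them the called macrophage marker TREM2, are named to describe their list. They were chosen after their values were seen. Of the listed genes, 2 are not reported here and were left out of their lists' counts. The proliferation list's genes are given by their count. Alternatives were variance models, library weights, a low filter, scalings, an offset of 32 and leaving out each library.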

Additional observations from a re-analysis of the deposited data

Results flagged for a closer look

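S100A4 in CTEPH library s9 stood apart from its group: its log2 value of 7.40 was separated from the next CTEPH library, at 6.50, by 0.713 of the group's whole range of 6.13 to 7.40, just above the critical value of 0.71 for 5 libraries. This was 1 of 36 groups of values looked at in this way, and chance alone is expected to single out about 1 in 20. Without s9 the S100A4 difference was 0.50, and without Sham library s6, the highest of all, it was 1.18.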

How the results depend on the processing

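The number of the 10 genes called higher was 5 under all 7 alternatives to the variance model, weights, filter, scaling and offset, and 4 to 5 with 1 library left out. As a description, S100A10, S100A11, ANXA2 and ANXA5 kept their calls in all 17 alternatives, and no gene of the 10 changed sign. S100A4 was removed by the low filter, which kept 9 of the 10. Over all genes 723 were called, 1269 with library weights and 401 to 961 with 1 library left out. Of the other S100 and annexin genes 1 was called, 2 with library weights (ANXA11 added, adjusted p = 0.0365, limma with Benjamini-Hochberg), 0 with the lowest 25% of genes dropped, which removes S100A14, and 0 to 2 with 1 library left out. The within-group correlation of S100A10 and ANXA2 was 0.68 to 0.70 under the scalings and offset and 0.58 to 0.79 with 1 library left out, passing after adjustment over both pairs without CTEPH library s3 (r = 0.79, exact permutation adjusted p = 0.0431). That of S100A11 and ANXA1 was -0.32 to 0.26 with 1 library left out, and turned positive without CTEPH library s3 (0.26) or s5 (0.08) or Sham library s7 (0.01). The cause was not tested. The S100A11 minus ANXA1 shift was 0.75 to 1.22 and the S100A10 minus ANXA2 shift -0.05 to 0.12 with 1 library left out. No paired analysis was possible because the labels give no pairing of CTEPH with Sham pigs.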
